A study of Mus musculus with 3 samples.

Results

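Precursors of innate lymphoid cells (ILCs) that express Rora and Id2 at high levels were examined in the library of early ILC progenitors from mouse bone marrow called ILCpro_WT. A cell was a member when it had at least 500 detected genes, at most 10% of its transcript counts (UMIs) from mitochondrial genes, at least 2 UMIs of Rora, at least 1 of Id2, and fewer than 3 UMIs over 5 genes of the type 2 ILC lineage (Icos, Stab2, Il17rb, Il1rl1 and Pxdc1). This rule was met by 511 of the 1829 ILCpro_WT cells kept (27.9%, exact 95% interval 25.9 to 30.1) and left 1318 cells as the rest of that library. The series holds 3355 kept cells. The 7 genes of the rule chose the cells, so their levels are descriptions and support nothing here. Sums of UMIs over a group of cells are given as counts per 1000000 UMIs of that group (CPM).

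Single cells of 3 sorted bone marrow populations of C57BL/6 mice were counted with 10x Chromium v2 chemistry, 1 library each, so that no difference below has a replicate check and no test was made. ILCpro_WT came from Tcf7EGFP/+ animals, with an EGFP reporter at 1 allele of Tcf7, which encodes TCF-1, a transcription factor of early lymphocytes. Its cells lacked lineage markers (Lin-), expressed Kit, 2B4 and the integrin a4b7, and were positive for the Tcf7 reporter. ILCpro_KO was sorted by the same gate from Tcf7EGFPnull/- animals, and ALP, the all-lymphoid progenitors, from Tcf7EGFP/+ animals by a gate that differs in being a4b7-, Flt3high and IL-7Ra+. "WT" therefore means heterozygous for the reporter, and all 3 groups carry an altered Tcf7 allele. Whether cells of several animals were pooled, and the ages of the animals, are not given in the sources used here.

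The libraries held 4115605 (ALP), 6094683 (ILCpro_WT) and 4384061 UMIs (ILCpro_KO) in kept cells, and ILCpro_WT shared 4 cell barcodes with ALP and 1 with ILCpro_KO. Tcf7, the targeted gene, stood at 1.46 CPM in ALP, 362 in ILCpro_WT and 57.3 in ILCpro_KO. Chromium v2 reads the 3′ end of a transcript, so a value of Tcf7 checks nothing about the null allele. Members had 1629398 UMIs in all, with a median of 2549 UMIs and 1096 genes per cell, against 4465285 UMIs and medians of 3029 UMIs and 1240 genes in the rest. Members were thus somewhat shallower although the rule asks for a minimum of UMIs. Intervals are exact at 95% and cover counting error only.

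ILCs are tissue lymphocytes without rearranged antigen receptors. In bone marrow they arise from lymphoid progenitors that first express TCF-1 and then the DNA-binding inhibitor Id2, which restrains E proteins, together with GATA3, TOX and, in a common precursor, the zinc finger factor PLZF encoded by Zbtb16. RORα, the nuclear receptor encoded by Rora, is known for its part in ILC development, type 2 ILCs above all, while PD-1 (Pdcd1) and the IL-18 receptor mark ILC precursors. In GENCODE vM21 (GRCm38), Rora spans chr9:68653786-69388246 on the plus strand, Zbtb16 chr9:48654297-48836222 on the minus strand and Id2 chr12:25093799-25097140 on the minus strand.

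Among the 12 genes with the highest ratios of members to the rest, 10 had an entry in RefSeq's table of promoters (GRCm38.p6, 250 bases before to 50 after the first listed start). Short motifs of factors expressed in these cells were searched on both strands, with AGGTCA for the core of the ROR element, then CTTTGA for the factors of the TCF/LEF family, then CCGGAA for the factors of the ETS family, and last AGATAA for the factors of the GATA family. No 2 of the matches printed overlap, and a match on the opposite strand shows as its reverse complement. The promoters of Pdcd1, Txk, Tox2 and Socs1 are printed because they hold a match and belong to genes on which the results turn. Capitals mark the match, and each sequence runs 5′ to 3′ along the gene.

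Pdcd1 (chr1:94052504-94052803, minus strand): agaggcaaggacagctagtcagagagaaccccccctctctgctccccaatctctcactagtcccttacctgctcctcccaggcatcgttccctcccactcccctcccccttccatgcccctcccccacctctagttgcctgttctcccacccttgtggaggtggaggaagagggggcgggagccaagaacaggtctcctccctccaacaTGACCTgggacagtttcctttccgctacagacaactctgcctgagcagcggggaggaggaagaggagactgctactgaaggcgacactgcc

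Txk (chr5:72752728-72753027, minus strand): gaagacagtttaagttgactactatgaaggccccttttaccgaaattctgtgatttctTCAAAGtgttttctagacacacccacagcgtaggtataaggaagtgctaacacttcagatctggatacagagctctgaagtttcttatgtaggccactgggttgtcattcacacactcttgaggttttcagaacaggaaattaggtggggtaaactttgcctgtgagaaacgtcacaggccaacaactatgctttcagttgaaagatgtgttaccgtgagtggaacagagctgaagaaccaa

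Tox2 (chr2:163202877-163203176, plus strand): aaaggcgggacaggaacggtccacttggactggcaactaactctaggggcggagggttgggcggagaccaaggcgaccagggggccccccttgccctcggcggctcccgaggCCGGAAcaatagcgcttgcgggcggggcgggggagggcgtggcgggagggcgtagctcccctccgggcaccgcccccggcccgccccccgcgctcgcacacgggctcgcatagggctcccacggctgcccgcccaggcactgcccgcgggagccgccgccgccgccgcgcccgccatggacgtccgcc

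Socs1 (chr16:10785487-10785786, minus strand): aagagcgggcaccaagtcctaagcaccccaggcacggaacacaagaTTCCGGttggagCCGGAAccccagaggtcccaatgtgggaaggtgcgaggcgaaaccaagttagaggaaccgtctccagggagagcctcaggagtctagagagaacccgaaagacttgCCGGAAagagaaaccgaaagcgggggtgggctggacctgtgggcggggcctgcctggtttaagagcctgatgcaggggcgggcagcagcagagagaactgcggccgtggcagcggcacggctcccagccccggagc

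The Pdcd1 window holds the ROR core once, the Txk window the TCF/LEF motif once, the Tox2 window the ETS motif once and the Socs1 window the ETS motif 3 times. Of the 10 windows, 1 held the ROR core (Pdcd1), 1 the TCF/LEF motif (Txk), 3 the ETS motif (Tox2, Rab19 and Socs1) and 0 the GATA motif. Of 11 windows of genes with the lowest ratios, 1 held the ROR core (Ctsg) and 2 the TCF/LEF motif (Mpo and Ctsg). In those 11 windows the ETS motif was held by 0 and the GATA motif by 1 (Prss34). Over all 27025 promoters of the table the shares were 16.0% for the ROR core, 16.2% for TCF/LEF, 15.2% for ETS and 11.4% for GATA. These matches are letters in a window and not sites of binding.

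Rora itself had 2 UMIs in 134 members, 3 in 119 and 4 or more in 258, with a median of 4 and a maximum of 20. Id2 had a median of 4 UMIs in members and 1 in the rest. The other 4 markers of the label, which the rule did not use, were all higher in members. Zbtb16 stood at 546 CPM (95% interval 510.3 to 583) in members and 170.4 (159 to 183) in the rest, 3.2-fold (2.9 to 3.53) higher in members. Il18r1, a chain of the IL-18 receptor, stood at 414 CPM (95% interval 384 to 447) in members and 138 (127 to 149) in the rest, 3.0-fold (2.69 to 3.35) higher. Gata3 stood at 599.6 CPM (95% interval 563 to 638) in members and 244 (229.8 to 259) in the rest, 2.46-fold (2.25 to 2.68) higher. Ets1, a transcription factor of lymphocytes, stood at 255 CPM (95% interval 231 to 280.4) in members and 60.7 (53.7 to 68.4) in the rest, 4.2-fold (3.59 to 4.91) higher. All 4 were more than 2-fold higher in members, as were 149 of the 5804 genes tested below (2.57%). Rora and Id2 were fixed by the rule. The members and their label were chosen with earlier results of these data known, so the 4 markers describe the members and are no independent check of the label.

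In shares of cells, after thinning every cell to 1000 UMIs, Zbtb16 was seen in 42.5% of members and 15.1% of the rest, and without thinning in 73.8% and 35.1%. As a background, 65 cells of the rest with at least 5 UMIs of MHC class II genes, a group picked after the data were seen, had Zbtb16 in 4.69% after thinning and 13.8% without it, at a median depth of 2709 UMIs against 2549 in members. Ets1 was seen in 23.1% of thinned members, 6.62% of the rest and 4.69% of the class II cells, and Gata3 in 44.2%, 22% and 10.9%. Il18r1 was seen in 33.5%, 13.5% and 17.2%. The share of Il18r1 in the rest was therefore no higher than in the class II cells, while in members all 4 markers were above both. The unthinned shares in members, the rest and the class II cells were 48.9%, 14.5% and 10.8% for Ets1, 75%, 42.6% and 20% for Gata3, and 53.6%, 22.8% and 24.6% for Il18r1.

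At the edge of the rule, the 134 members with 2 Rora UMIs lay just inside and 184 cells with 1 Rora UMI that met every other condition lay just outside. Zbtb16 stood at 438 CPM inside and 385 outside, Lmo4 at 1111 and 582, Pdcd1 at 228 and 158, Gata3 at 533 and 372, and Il18r1 at 395 and 209. The 66 members with 1 Id2 UMI had 483 CPM of Zbtb16, and the 72 cells with 2 or more Rora UMIs and no Id2 UMI had 395. The 14 members with 2 UMIs of the type 2 ILC genes had 582 CPM of Zbtb16, and the 8 cells with 3 such UMIs had 125, on few cells each.

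The rest of the library was then compared with members over every gene. A ratio is log2((CPM + 10)/(CPM + 10)), and a gene was counted as higher or lower when that ratio passed 2-fold, for genes that reached 20 CPM on either side. Of 5804 such genes, 149 were higher in members (2.57%) and 126 lower (2.17%), with a median log2 ratio of -0.01. With 1 CPM in place of 10 added, the same counts were 259 and 214. The genes named next are those with the highest ratios and the genes of the lists.

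Several regulators of transcription were among the genes with the highest ratios. Lmo4, a LIM domain protein that bridges transcription factor complexes, stood at 1512 CPM (95% interval 1452 to 1572) in members and 261 (246 to 276) in the rest, 5.8-fold (5.41 to 6.22) higher, and was seen in 410 of 511 members. Tox2, a relative of TOX, stood at 523 CPM in members and 109.7 in the rest, 4.77-fold (4.26 to 5.34) higher, in 364 members. Maf, a bZIP factor of lymphocytes, stood at 205 and 45.7 CPM, 4.49-fold (3.76 to 5.37) higher. The list of ILC transcription factors had 15 genes tested beside the 2 of the rule, of which 8 were higher (Tox2, Maf, Ets1, Zbtb16, Bcl11b, Lef1, Ikzf2 and Gata3) and 2 lower (Runx1 and Nfil3), with a median of 1.26 beside -0.01 over all genes. That list was made with earlier results of these data known. Bcl11b, a factor of T cells and type 2 ILCs, stood at 184 against 54.6 CPM, 3.37-fold (2.84 to 4.01) higher. Ikzf2 (Helios, of the Ikaros family) stood at 721 against 259.6 CPM, 2.78-fold (2.56 to 3.02) higher, and its relative Ikzf3 at 69.4 against 15.7. Tox and Tcf7 differed less, at 318 against 163 CPM (1.95-fold, 1.74 to 2.18) and 538 against 298 (1.8-fold, 1.65 to 1.96), and Tcf7 is also the gene whose reporter was sorted on.

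Runx3, known for its part in NK cells and ILC3, was close to even, at 808 against 653 CPM (1.24-fold, 1.16 to 1.32), and its log2 ratio of means of per-cell CPM was -0.05. The factors on the low side are known from earlier progenitors and other lineages. Nfil3, needed early in ILC development, stood at 31.3 CPM in members and 88.7 in the rest, 2.83-fold (2.11 to 3.87) higher in the rest. Runx1 stood at 17.2 against 83.3 CPM, 4.85-fold (3.3 to 7.4) higher in the rest. Irf8 and Spi1 (PU.1), factors of dendritic and myeloid cells, stood at 74.9 against 403 and 20.3 against 115 CPM, 5.38-fold (4.47 to 6.51) and 5.67-fold (3.99 to 8.33) higher in the rest. Ets1 and Spi1, both of the ETS family, thus lay on opposite sides, and Fli1 of the same family stood at 211 against 134 CPM. Runx2, of the family of Runx1 and Runx3, was lower in members at 9.21 against 44.8 CPM.

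**Figure D1:**
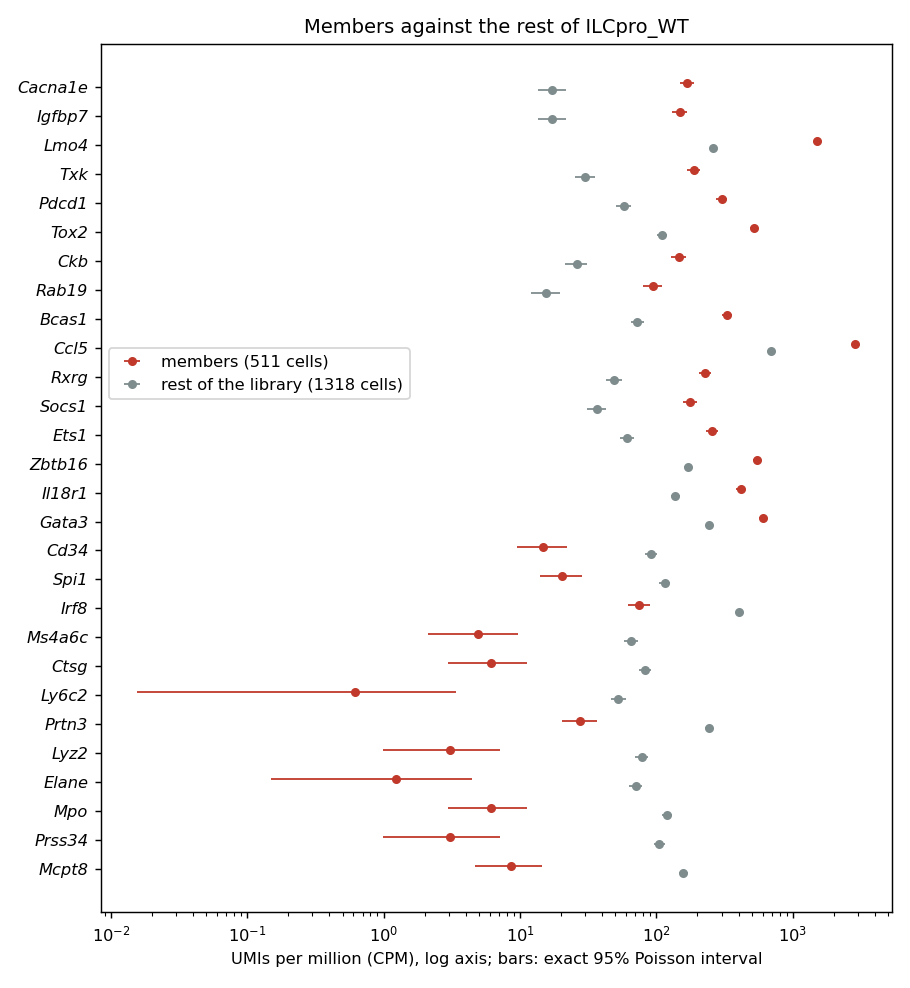
Levels of the 12 genes with the highest and the 12 with the lowest ratios and of 4 markers, as CPM on a log axis, in members (red) and in the rest of ILCpro_WT (grey). Bars are exact 95% Poisson intervals of 1 library. Lmo4 stands at 1512 CPM in members and 261 in the rest, while granule genes such as Mpo and Elane lie far to the left in members.

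Some surface receptors of ILC precursors were higher too. Pdcd1, which encodes PD-1, stood at 301 CPM (95% interval 275 to 329) in members and 57.6 (50.7 to 65) in the rest, 5.24-fold (4.49 to 6.11) higher, and was seen in 282 members. Il7r, the IL-7 receptor chain that ILCs depend on, stood at 209.9 against 54.6 CPM, 3.84-fold (3.25 to 4.55) higher, and its partner Il2rg at 179 against 76.6, 2.33-fold (1.99 to 2.73) higher. Of 16 tested genes of the list of ILC precursor surface and effector genes, 8 were higher (Pdcd1, Il7r, Ltb, Il18r1, Thy1, Arg1, Cxcr5 and Il2rg) and 0 lower, with a median of 1.0. Arg1, which encodes arginase and is known in ILC precursors and type 2 ILCs, stood at 72.4 against 22.4 CPM and had a UMI in 78 members. The gate's own molecules differed little or not past 2-fold. Itgb7, a chain of a4b7, stood at 99.4 against 108 CPM (0.921-fold, 0.766 to 1.1), Itga4, the other chain, at 390.3 against 506 (0.772-fold, 0.705 to 0.843), and Kit at 98.8 against 54.2 (1.82-fold, 1.48 to 2.23). Cd7 was close to even, at 61.4 against 66.3 CPM.

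Signalling genes among the highest ratios were Txk and Socs1. Txk, a Tec family kinase of T cells, stood at 187 against 30.01 CPM, 6.24-fold (5.07 to 7.7) higher, and Socs1, the feedback inhibitor of cytokine receptors, at 176 against 36.5, 4.81-fold (3.95 to 5.86) higher. Among secreted factors, the chemokine gene Ccl5 stood at 2846 CPM (95% interval 2765 to 2929.6) in members and 691 (667 to 716) in the rest, 4.12-fold (3.94 to 4.31) higher. It had a UMI in 350 members, of which 5 cells held 462 of the 4638 UMIs and 1 cell 116. After thinning its share was 55% in members, 23.6% in the rest and 17.2% in the class II cells, and 68.5%, 39.2% and 29.2% without thinning. Ltb, which encodes lymphotoxin β and is known from lymphoid tissue inducer cells, stood at 349 against 101 CPM, 3.44-fold (3.04 to 3.91) higher. Igfbp7, a secreted binding protein of insulin-like growth factors, stood at 148 against 17.2, 8.58-fold (6.61 to 11.2) higher, and Igfbp4 at 581 against 264.

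Among the highest ratios were also genes better known from other tissues. Cacna1e, a voltage-gated calcium channel subunit, stood at 168 CPM (95% interval 148 to 189) in members and 17.2 (13.6 to 21.6) in the rest, 9.72-fold (7.52 to 12.7) higher. Ckb (creatine kinase), Rab19 (a small GTPase) and Rxrg (a retinoid X receptor) were 5.62-fold (4.48 to 7.08), 6.12-fold (4.58 to 8.25) and 4.69-fold (3.95 to 5.57) higher. Bcas1 stood at 328 against 72.6 CPM, 4.52-fold (3.93 to 5.2) higher, and was seen in 177 members. The antisense genes Bcas1os1 and Bcas1os2 overlap it in GENCODE vM21, and Polr2b and a gene model on the opposite strand overlap Igfbp7. Irf8 and Prtn3 overlap other annotated genes as well. Whether the counting used strand is not given in the sources used here, so reads of such neighbours could not be told apart.

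Few genes of mature ILC and NK cells were detected well enough to be tested. Of 18 NK and cytotoxic genes only 5 were tested, of which Ccl5 and Ctsw were higher, and Gzmb and Prf1 had 0 UMIs in all 511 members, which, taking a count of 0 to allow 3 cells, limits the share of cells with a UMI to 0.587%. Of 14 ILC3 and lymphoid tissue inducer genes, Il23r, Il17a, Tnfrsf11a and Cd4 were at 0, and Ltb and Cxcr5 were higher among 4 tested. The 11 type 2 genes outside the rule summed to 281 CPM in members and 89.8 in the rest. Only 2 of them were tested, Bcl11b and Hes1, and both were higher in members. Klrg1, Il13, Il5, Areg and Ptgdr2 of that list were at 0 in members. Of the genes at 0 here, Prf1, Il17a, Cd4, Il5 and Areg had no UMI in the rest of the library either. Eomes, a factor of NK cells, had 20 UMIs in 14 members, 12.3 CPM against 7.84 in the rest (1.57-fold, 0.857 to 2.79). Of the T lineage list, Cd3e and Cd4 were at 0 and none of 4 tested genes passed 2-fold.

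Of 14 tested genes of early progenitors, 0 were higher and 4 lower (Cd34, Dntt, Cpa3 and Mef2c), with a median of -0.66. Cd34, a surface marker of progenitors, stood at 14.7 against 91.4 CPM, 6.2-fold (4.11 to 9.79) higher in the rest. Flt3, the receptor of early lymphoid progenitors, had 11 UMIs in 10 members, 6.75 against 21.5 CPM. Dntt, which encodes the terminal transferase of lymphoid progenitors, stood at 9.82 against 38.1 CPM, and Rag1 and Rag2 were at 0 in members. The lowest ratios belonged to granule genes of myeloid cells, basophils and mast cells, of which Elane, Prss34 and Mcpt8 sat in few cells of the rest. Mpo stood at 6.14 against 119 CPM and was 19.4-fold (10.5 to 40.8) higher in the rest, in 8 members and 207 cells of the rest, and Prtn3 at 27.6 against 242, in 24 and 314 cells. Elane had 2 UMIs in members and 314 in 19 cells of the rest, a ratio of rest to members of 57.3 (15.7 to 475). Prss34, a protease of basophils, had 470 UMIs in 17 cells of the rest and 5 in members. Its log2 ratio of -3.14 turned to 0.05 when cells with at least 5 UMIs of other lineages were left out of both groups (15 members and 192 others, an alternative added after the data were seen), and to 0.21 when the rest was limited to its 691 cells with an Id2 UMI. Under the first of these, the ratio of Elane went from -2.84 to -0.011, that of Mcpt8 from -3.17 to -0.19 and that of Lyz2 from -2.75 to -0.53, while Mpo and Prtn3 were past 2-fold in all 12 alternatives.

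Cells with 3 or more UMIs over the 15 neutrophil and monocyte genes numbered 7 members (1.37%) and 205 cells of the rest (15.6%). All shares in this paragraph are without thinning, at median depths of 2549 UMIs in members and 3029 in the rest. The part of depth in them was not tested. Summed levels were 46.6 and 662 CPM. S100a8, S100a9, Ngp, Camp, Cebpe, Fcnb and Ltf were at 0 in members. For the 9 MHC class II genes the numbers were 39 (7.63%) and 128 cells (9.71%), with 311 and 479 CPM. For the 11 conventional dendritic genes they were 40 (7.83%) and 244 cells (18.5%), with Zbtb46, Itgax, Xcr1, Clec9a and Irf4 at 0 in members. The 10 plasmacytoid dendritic genes reached 3 UMIs in 49 members (9.59%) and 358 cells of the rest (27.2%). The 8 mast cell and basophil genes did so in 7 (1.37%) and 68 (5.16%). The 18 NK genes did so in 370 members (72.4%) and 471 cells of the rest (35.7%), with 3601 CPM against 1127, of which Ccl5 made up most. Other lists also reached 3 UMIs more often in members. The shares were 23.3% of members and 16.7% of the rest for the T lineage list. For ILC3 and lymphoid tissue inducer genes, of whose 462 CPM in members Ltb made up 349, they were 22.3% and 5.99%. For type 2 genes outside the rule they were 11% and 2.73%. Bcl11b and Hes1 made up 184 and 92.1 of the 281 CPM of that list in members. The part of these cells in the other differences was not tested beyond leaving out those of the class II, neutrophil, mast cell, erythroid and B lineage lists. Cd74, the invariant chain, had 99 UMIs in 21 members, 56 of them in 5 cells, and stood at 60.8 against 169 CPM, while H2-Oa, of the same list of 7 tested genes, passed 2-fold on the high side.

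Most tested G2/M genes, but 1 of the tested S phase genes, were lower in members past 2-fold. After thinning to 1000 UMIs, 48 of 511 members (9.39%, 7.01 to 12.3) had 2 or more UMIs of G2/M genes, against 24.2% (21.9 to 26.6) of the rest. For S phase genes the shares were 22.1% (18.6 to 26) and 44.8% (42.1 to 47.6), and the summed levels of the 30 G2/M genes without thinning were 770.2 and 1992 CPM. Of 24 tested G2/M genes 15 were lower and 0 higher (median -1.17). Among the lower genes was Ube2c, a ubiquitin-conjugating enzyme of mitotic exit, at 42.3 against 154 CPM. Of 23 S phase genes only Rrm1 passed 2-fold, with a median of -0.78. When both groups were limited to cells with at most 2 G2/M UMIs, 434 members were left among 1313 cells and 78 genes were lower in place of 126. Members then made up 33.1% of the kept cells, and the ILC transcription factors had a median of 1.07. Tpx2, a spindle protein, was lower in members over all cells, with a log2 ratio of -1.46, and had a ratio of 0.22 there.

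Of 10 tested integrin and adhesion genes 1 was higher (Itgb3), and of 3 tested chemokine receptors and egress genes 2 (Ccr2 and Cxcr5). The Bcl2 family (6 tested), glycolysis (11), Krüppel-like factors (3) and AP-1 with immediate early genes (5) had none past 2-fold. Bcl2 itself, the survival gene, stood at 1603 against 1079 CPM, 1.49-fold (1.42 to 1.56) higher. Of 4 tested Notch pathway genes only the target Hes1 was higher, at 92.1 against 30.5 CPM, and of 6 TCF and Wnt genes Lef1 was higher and Ccnd2 lower. Among E proteins, Id proteins and their partners (5 tested), Lmo4 was higher and Lyl1 lower. Of the Ikaros family 2 of 3 were higher (Ikzf3 and Ikzf2), of the retinoid and ROR receptors outside the rule 1 of 4 (Rxrg), of the IL-1 and IL-18 receptor family 1 of 4 (Il18r1) and of the co-receptors 1 of 6 (Pdcd1). Of 3 tested interferon response genes 1 was lower (Ifi27l2a), and the 1 tested B lineage gene passed 2-fold in neither direction.

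To place members among their neighbours, the 1829 cells were split without overlap into 6 groups by the genes of the rule and by Fgf3 and Bcas1, genes that vary among these progenitors. They were 734 cells with no UMI of Rora, Fgf3 or Bcas1, 183 cells with no Rora but a UMI of Fgf3 or Bcas1, 262 cells with 1 Rora UMI, 72 with 2 or more Rora UMIs and no Id2 UMI, the 511 members, and 67 cells with 3 or more UMIs of the 5 type 2 genes, called ILC2-gene cells here. Levels below follow this order. Zbtb16 stood at 95.1, 181, 344, 395, 546 and 57.6 CPM. It was thus highest in members and low in ILC2-gene cells, and the intervals of the 1-UMI and Id2-free groups overlapped each other. Pdcd1 stood at 23.6, 53.5, 141, 156, 301 and 21 CPM and Tox2 at 54, 97.3, 228, 285, 523 and 136 CPM, again highest in members.

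Other genes went further up in ILC2-gene cells. Gata3 stood at 131, 208, 338, 450.4, 599.6 and 1174 CPM, Il18r1 at 85.7, 69.9, 162, 175, 414 and 922 and Ets1 at 22.4, 45.2, 84.2, 124, 255 and 435. For these genes members lay between the groups listed before them and the ILC2-gene cells. Lmo4 stood at 102, 160.4, 460.4, 804, 1512 and 1163 CPM, highest in members. Ltb, at 57.3, 38.4, 141, 119.5, 349 and 707 CPM, followed the pattern of Il18r1. Tcf7 stood at 221, 293, 522, 469, 538 and 99.5 CPM, at like levels in the 3 groups with a Rora UMI other than the ILC2-gene cells. Fgf3, a fibroblast growth factor, stood at 0, 359, 212, 359, 203 and 21 CPM, where the 0 and the contrast between the first 2 groups come from how they were split. Nfil3 was highest in the first group, at 125, 56.2, 42.7, 41.4, 31.3 and 10.5 CPM. Irf8, at 586, 277, 135, 73.5, 74.9 and 115 CPM, was highest there as well. Its intervals in members (62.2 to 89.4) and in ILC2-gene cells (72.2 to 174, on 22 UMIs) overlapped.

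**Figure D2:**
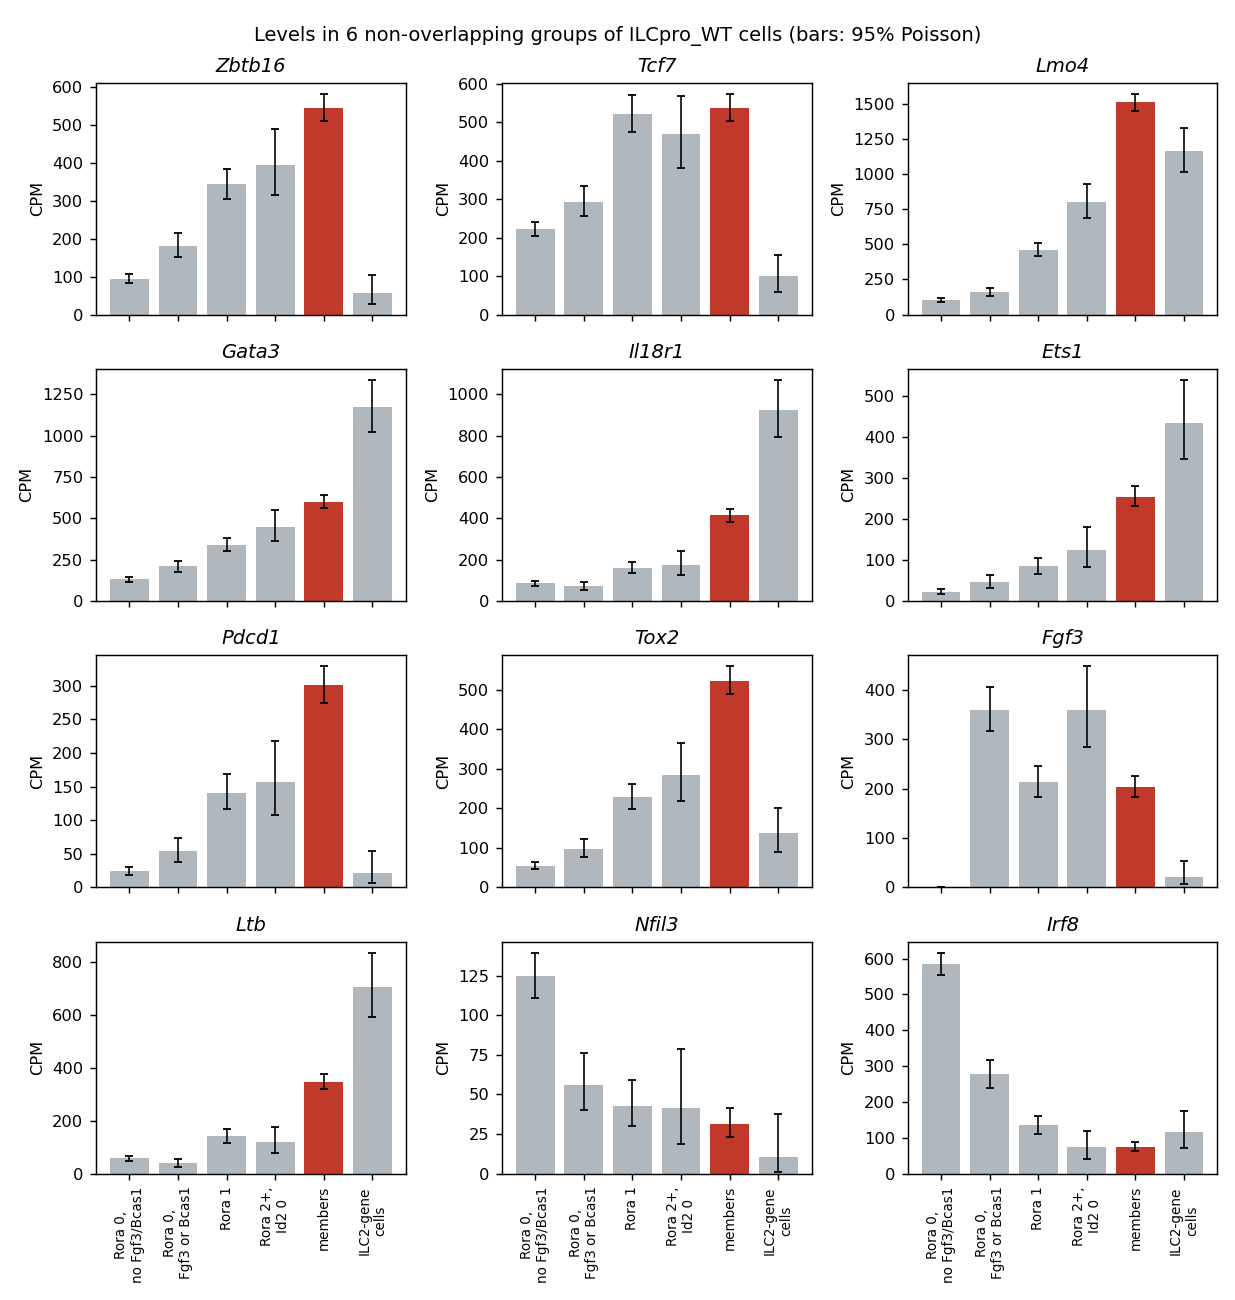
Levels of 12 genes, in CPM, in 6 non-overlapping groups of ILCpro_WT cells, with members in red and exact 95% Poisson intervals as black bars. Zbtb16, Pdcd1 and Tox2 are highest in members, Gata3, Il18r1, Ets1 and Ltb in ILC2-gene cells, and Irf8 goes from 586 to 74.9 CPM between the first group and members.

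For comparisons with single neighbour groups, which hold fewer UMIs, a gene had to reach 50 CPM on either side. Against the ILC2-gene cells, 138 of 3207 such genes were at least 2-fold higher in members (4.3%) and 271 lower (8.45%), with a median log2 ratio of -0.18. The 2 groups were divided by the 5 type 2 genes, but only 36 of the 67 ILC2-gene cells met the Rora and Id2 conditions of the rule. Rora stood at 1302 CPM in members and 723 in ILC2-gene cells. The part of this in the differences was not tested. Zbtb16 was 9.47-fold (5.27 to 19) higher in members and Pdcd1 14.4-fold (5.58 to 53). Tyrobp, the adaptor DAP12 of NK and myeloid receptors, stood at 854 against 99.5 CPM, with a UMI in 386 of 511 members and 9 of 67 ILC2-gene cells. Igfbp7 and the Notch target Hes1 had 0 UMIs in ILC2-gene cells and 148 and 92.1 CPM in members, so that Igfbp7 was at least 9.41-fold higher and Hes1 at least 5.86-fold, taking 3 UMIs over the 67 cells as the lower limit. Higher in ILC2-gene cells were Ccr9, a gut-homing receptor with 1 UMI in members, Hlf, a factor of early progenitors, at 12.3 against 178 CPM, Ltb4r1, a leukotriene receptor, at 9.82 against 157 CPM, and Skap1, a T cell adaptor, at 35.6 against 288 CPM. Cell cycle genes stood among them as well, such as Birc5 at 47.9 against 393 CPM. After thinning, 38.8% (27.1 to 51.5) of the ILC2-gene cells had 2 or more G2/M UMIs, against 9.39% of members.

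Against the 262 cells with 1 Rora UMI, 37 of 2837 genes were higher in members (1.3%) and 10 lower (0.352%), with a median of -0.02. Lmo4 was 3.28-fold (2.95 to 3.66) higher, Cacna1e 4.15-fold (2.91 to 6.08), Maf 3.17-fold and Ets1 3.02-fold. The tetraspanin gene Cd82 stood at 88.4 against 23.1 CPM and Cd34 at 14.7 against 53.1 CPM. Lyz2, at 3.07 against 62.3 CPM, had its 54 UMIs in 8 of the 1-UMI cells. Against the 734 cells with no UMI of Rora, Fgf3 and Bcas1, and with Fgf3 and Bcas1 left out, 140 of 2965 genes were higher (4.72%) and 111 lower (3.74%). Cacna1e and Igfbp7 were 34.4-fold (19.4 to 67.3) and 33.1-fold (18.2 to 67.2) higher there, and Bcl11b stood at 184 against 8.94 CPM.

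Among members, levels varied with the number of Rora UMIs. In cells with 2, 3 and 4 or more Rora UMIs, Zbtb16 stood at 438, 524 and 602 CPM, Lmo4 at 1111, 1541 and 1681, Pdcd1 at 228, 274 and 345 and Tox2 at 408, 492 and 587. Maf, at 135, 201 and 238 CPM, and Socs1, at 100.1, 134 and 226, showed the same order. Median depths of the 3 classes were 2490.5, 2485 and 2626 UMIs and upper quartiles 3511, 3220 and 4151.75. The class with 4 or more Rora UMIs thus held more deep cells, and the levels were not compared at equal depth. Other genes did not follow. Il18r1 stood at 395, 428 and 417 CPM, Il7r at 198, 178 and 228 and Fgf3 at 225, 137 and 219. Cd7, a surface protein of T and NK cells, stood at 138, 35 and 37.2 CPM (55, 12 and 33 UMIs). Eomes stood at 27.5, 2.91 and 9.02 CPM, on only 11, 1 and 8 UMIs. Both levels were highest in the members nearest the edge of the rule. Cd34 stood at 27.5, 23.3 and 5.64 CPM, and S phase genes together at 1654, 1515 and 1087.

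Members were next divided by Zbtb16, the gene of PLZF, which marks the common ILC precursor. At least 1 UMI was seen in 377 members and none in 134, with 889 UMIs in all (1.74 per member) and a maximum of 15. A cell without a UMI is not a cell without the transcript. In 4 equal classes of depth, from shallow to deep, Zbtb16 was seen in 62.5%, 76.4%, 77.3% and 78.9% of members, and median depths were 2651 UMIs in Zbtb16-positive and 2357.5 in Zbtb16-negative members. The negative cells hold 366091 UMIs, so that 3 UMIs equal 8.19 CPM there and single genes are imprecise.

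The 2 sides were much alike in the genes of the ILC precursor. Rora stood at 1304 CPM in Zbtb16-positive and 1295 in Zbtb16-negative members and Id2 at 1426 and 1366, both used by the rule. Gata3 stood at 605 CPM in Zbtb16-positive and 582 in Zbtb16-negative members, a ratio of 1.04 (0.892 to 1.22). Ccl5 stood at 2851 and 2829.9 CPM (1.01-fold, 0.940 to 1.08), Il7r at 214 and 197 (1.09-fold, 0.835 to 1.43), Bcl11b at 180.5 and 197 (0.918-fold, 0.701 to 1.21), and Tox2 at 537 and 473 (1.14-fold, 0.961 to 1.35). Of 5889 genes, 321 were at least 1.5-fold higher in Zbtb16-positive members (5.45%) and 421 lower (7.15%), with a median of -0.05. Past 2-fold were 52 higher (0.883%) and 44 lower (0.747%). Among genes of at least 100 CPM, an alternative added after the data were seen, 18 of 1409 were higher and 49 lower. Of 14 tested ILC transcription factors, 0 were higher and 1 lower (Eomes, on 20 UMIs), with a median of 0.20.

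Some levels were higher with Zbtb16. Bcas1, Rxrg and Igfbp4 passed 1.5-fold, as did Irf8 (83.9 against 43.7 CPM), Csf2ra, Hes1, Lat and Mcl1 among the genes of the lists. Tcf7, Fgf3, Lmo4, Runx3 and Ikzf2 did not. Tcf7 stood at 577 CPM in Zbtb16-positive and 402 in Zbtb16-negative members, a ratio of 1.44 (1.2 to 1.73). Bcas1 stood at 364 and 202 CPM (1.8-fold, 1.41 to 2.34), Rxrg at 252 and 145 (1.74-fold, 1.3 to 2.37), Igfbp4 at 630.1 and 412 (1.53-fold, 1.28 to 1.83), and Fgf3 at 218 and 153 (1.42-fold, 1.06 to 1.93). Lmo4, Runx3 and Ikzf2 were higher by less, with ratios of 1.19 (1.08 to 1.32), 1.24 (1.08 to 1.42) and 1.17 (1.01 to 1.36). The highest ratios came from genes with few UMIs on the negative side. Camk2g, a calcium-dependent kinase, had 65 UMIs in positive and 5 in negative members (3.77-fold, 1.53 to 12), Cela1, an elastase, 111 and 11 (2.92-fold, 1.57 to 6.03) and Fgf15 73 and 8 (2.64-fold, 1.27 to 6.35). These folds carry wide intervals.

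Other levels leaned to the negative side. Il18r1 stood at 383 CPM in Zbtb16-positive and 522 in Zbtb16-negative members, 1.36-fold (1.15 to 1.61) higher in the negative side. Ltb stood at 319 and 451 CPM, 1.41-fold (1.17 to 1.7) higher without Zbtb16, Maf at 186 and 270.4, 1.45-fold (1.14 to 1.85) higher, and Ets1 at 241 and 300.5, with an interval that includes even levels (0.992 to 1.55). None of these 4 genes passed 1.5-fold. Icos, the co-stimulator held below 3 UMIs by the rule on both sides, stood at 19 and 62.8 CPM, in 20 of 377 positive and 22 of 134 negative members, which is a description since the rule used it. Klrd1 (CD94), a receptor of NK cells, had 2 UMIs in 1 positive member and 25 UMIs in 8 negative members, a ratio of negative to positive of 43.1 (10.8 to 376). Of these 25 UMIs, 22 lay in 5 cells. Of 6 tested NK and cytotoxic genes, 3 passed 1.5-fold on the negative side (Klrd1, Eomes and Il2rb) and 0 on the positive side, with a median of -0.32. Ctsw, a protease of cytotoxic cells, stood at 154 and 112 CPM (1.37-fold, 0.975 to 1.97).

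Cd74 stood at 39.6 CPM in Zbtb16-positive and 134 in Zbtb16-negative members, 3.38-fold (2.23 to 5.12) higher in the negative side, where 44 of 49 UMIs lay in 5 cells. Its share of cells was 3.45% and 5.97%, against 87.7% of the class II cells, which were chosen on this and related genes. Of 7 tested class II genes 2 passed 1.5-fold (Cd74 and H2-Eb1). The ratio of H2-Eb1 turned from -0.97 to 0.02 when only members with at least 3 Rora UMIs were used. Of 22 tested S phase genes 8 passed 1.5-fold lower in positive members (median -0.50), and of 16 G2/M genes 7 (median -0.53), with 0 higher in each. Rrm2, a subunit of ribonucleotide reductase, stood at 14.2 and 51.9 CPM and Top2a, the topoisomerase of dividing cells, at 94.2 and 172. The share of thinned cells with 2 or more G2/M UMIs was 9.02% (6.33 to 12.4) and 10.4% (5.83 to 16.9), which overlap. With cells of more than 2 G2/M UMIs left out, the ratio of Nusap1 turned from -1.12 to 0.14 and that of Eomes from -0.71 to 0.03.

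**Figure D3:**
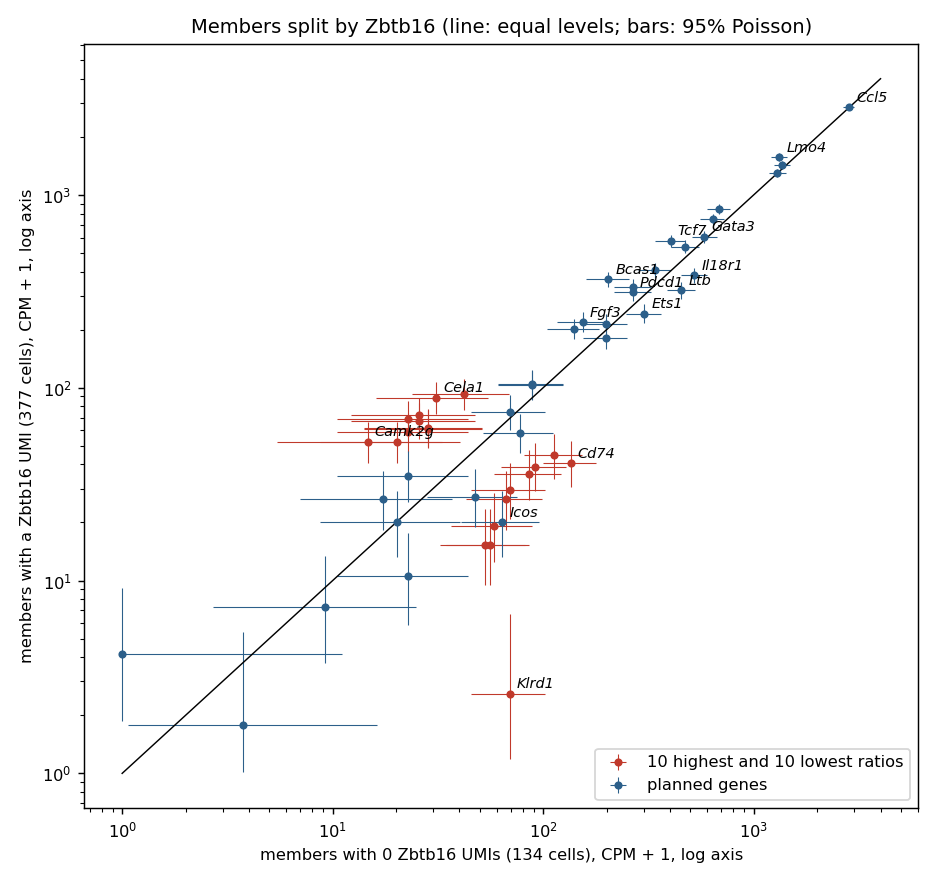
Levels (CPM + 1, both axes log) of the planned genes (blue) and of the 20 genes with the most extreme ratios (red) in members with a Zbtb16 UMI against members with none, with exact 95% Poisson intervals and a line of equal levels. Ccl5 and Gata3 lie on the line, Tcf7 and Bcas1 above it, and Il18r1, Ltb, Icos, Cd74 and Klrd1 below it.

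Clusters made from ILCpro_WT alone, without the 7 genes of the rule and without cell cycle genes, show where members lie. Cluster genes are descriptions, as they were picked by cluster from the same cells. The cycle genes among them were not used to make the clusters. Of 11 clusters, cluster 0 (431 cells, led by Cacna1e, Ckb, Lmo4 and Igfbp7) held 316 members, 61.8% of them, and members made up 73.3% of it. Cluster 2, led by Fgf3 and Fgf15, held 75 members (14.7%). Cluster 6, led by Skap1, Stxbp6, Lztfl1 and Hlf, held 38 members, of which 19 had a Zbtb16 UMI and 19 had none. These are 5.04% of the positive and 14.2% of the negative members. Cluster 8, led by the NK genes Klrd1, Eomes and Klrk1, held 3 positive and 8 negative members. Cluster 9 held 31 cells with a median of 6411 UMIs, of which 22 were Zbtb16-positive members and 1 a negative one. Its depth was over that of every other cluster, and Scrublet, a doublet caller, placed 16 members among the 27 highest scores of the library. Cluster 3, led by Ube2c and other cycle genes, held 22 members. Clusters 4, 7 and 10, led by granule, class II and basophil genes, held 1, 1 and 0 members.

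**Figure D4:**
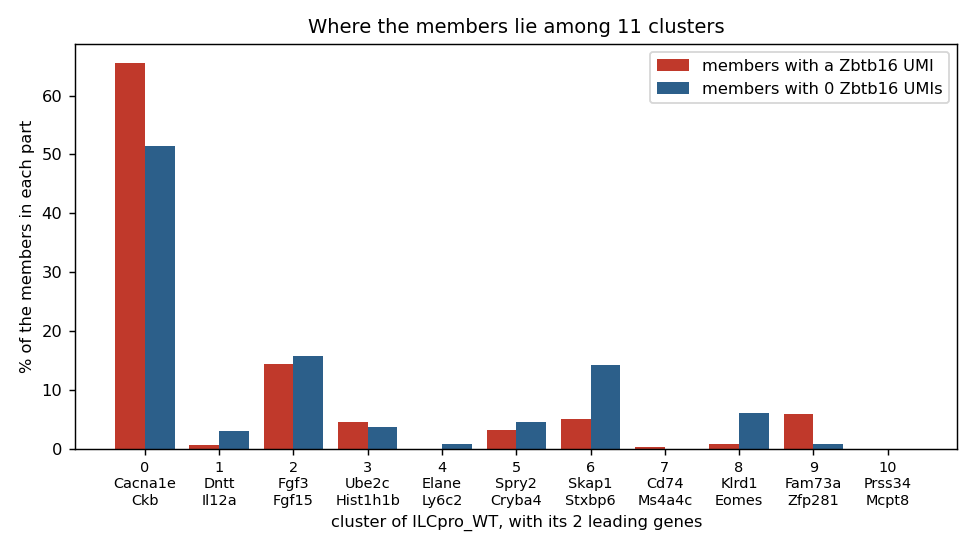
Share of the Zbtb16-positive (red) and Zbtb16-negative members (blue) in each of 11 clusters of ILCpro_WT, in percent of that side, with the 2 leading genes of each cluster below its number. Most members of both sides lie in cluster 0, at 65.5% and 51.5%, and cluster 6 holds 5.04% and 14.2%.

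The same rule was applied to the other libraries. It was met by 41 of 716 ILCpro_KO cells (5.73%, 4.14 to 7.69) and 0 of 810 ALP cells (exact interval 0 to 0.454%), or up to 0.370% if a count of 0 is taken to allow 3 cells. Median depth was 4599 UMIs in the ILCpro_KO cells against 2549 in members, and a fixed number of UMIs is met more easily by deep cells. With all cells thinned to 1000 UMIs and a rule of 1 Rora UMI, 1 Id2 UMI and fewer than 2 type 2 UMIs, the shares were 18.8% (343 of 1825) in ILCpro_WT, 2.23% (16 of 716, 1.28 to 3.60) in ILCpro_KO and 0 of 810 in ALP. The share was thus lower in the null library at equal depth, and with 1 library each, genotype and library cannot be told apart. Of the 343 cells, 285 were members.

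The 41 null cells were set against the 511 members, with Tcf7, the targeted gene, left out of the counts. Tcf7 stood at 225 CPM (44 UMIs) in these 41 cells, above the level of their library, and at 538 in members, so that null refers to the genotype label. Of 3315 genes with at least 50 CPM in either group, 57 were at least 2-fold higher in ILCpro_WT members (1.72%) and 164 lower (4.95%), with a median of -0.20. Near-equal levels were seen for Ccl5 (2695 CPM in null cells against 2846), Pdcd1 (316 against 301) and Id2, which the rule used (1444 against 1413). Rora, which the rule also used, stood at 924 CPM in null cells against 1302, at median depths of 4599 and 2549 UMIs. The 2 groups were thus matched neither in Rora level nor in depth. The part of this in the differences below was not tested. Zbtb16 stood at 383 CPM in null cells against 546. Lmo4 was 4.06-fold (3.21 to 5.19) higher in ILCpro_WT, at 1512 against 373 CPM. Gata3, at 599.6 against 239.9, Bcl11b, at 184 against 61.2, Il7r, at 209.9 against 86.8, and Il18r1, at 414 against 179 CPM, passed 2-fold as well. Fgf3 had 2 UMIs in the null cells, a ratio of 19.9 (5.47 to 165), Cacna1e 4 UMIs and Bcas1 9.

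Higher in the null cells was Lef1, the relative of TCF-1, at 91.4 against 572 CPM and in 31 of 41 cells against 97 of 511, 6.25-fold (4.85 to 8.04). Cd7 was 7.9-fold (5.9 to 10.6) higher, at 61.4 against 485 CPM and in 27 of 41 cells. Tnfrsf9 (4-1BB) and the inhibitory receptor gene Lag3 stood at 27 against 179 CPM and 7.98 against 97 CPM. Cd74 stood at 60.8 against 362 CPM, in 11 of the 41 cells, and 4 of 6 tested class II genes were higher in the null cells. Summed class II levels were 311 CPM in members and 827 in the null cells, and those of S phase genes 1316 and 2358. Their part in the other differences was not tested. Sdc4, a syndecan, had 29 UMIs in 5 null cells and Asb2, a ubiquitin ligase subunit, 20 UMIs in 5, so few cells carry these values. Of 10 tested ILC transcription factors 2 were higher in ILCpro_WT (Bcl11b and Gata3) and 1 in the null cells (Lef1), with a median of 0.36 beside -0.20 over all genes.

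**Figure D5:**
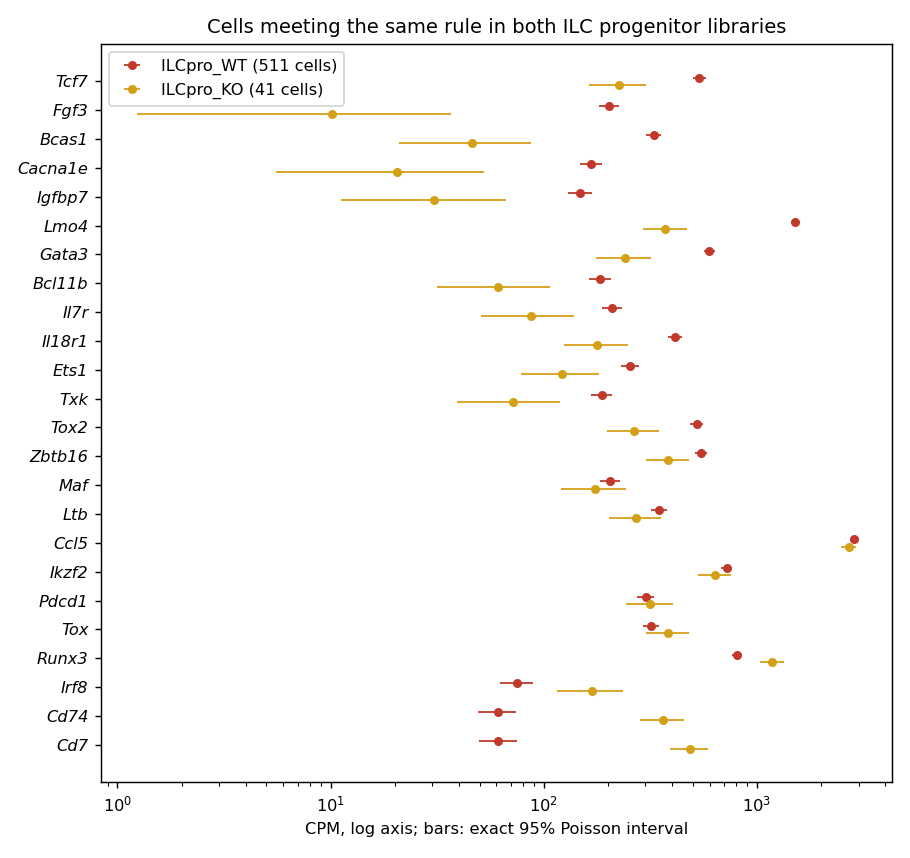
Levels of 24 genes, in CPM on a log axis, in the cells that met the rule in ILCpro_WT (red, 511) and ILCpro_KO (gold, 41), with exact 95% Poisson intervals. Fgf3, Cacna1e and Lmo4 lie to the left in ILCpro_KO, Ccl5 and Pdcd1 nearly coincide, and Cd74 and Cd7 lie to the right.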

How the data were processed

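UMI counts per gene and cell were deposited by the authors as 10x matrices, 1 for each of 3 libraries. Per the submitters' processing notes, bcl2fastq 2.17, Cell Ranger 2.0.1, STAR 2.5.1b and mm10 were used. Cells with at least 500 genes and at most 10% mitochondrial UMIs were kept, which left 1829 of 1834 ILCpro_WT barcodes. Raw UMIs were summed over groups of cells. With 1 library per group no test was made. Levels carry exact Poisson intervals, ratios exact conditional binomial intervals and shares of cells Clopper-Pearson intervals, all at 95% and for counting error only. The members and the 35 gene lists were chosen with earlier results of these data known.

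The genes of the rule were left out of counts and medians, as was Zbtb16 in the split by Zbtb16. The text names the 12 highest and 12 lowest ratios against the rest and the 10 highest and 10 lowest of the split among genes with at least 50 CPM, the markers, 35 planned genes and up to 4 genes of each list. In comparisons with neighbour groups (8 genes a direction) and null cells (10 a direction) genes were named from the highest and lowest ratios, beside planned genes. Other genes are named only as the members of a count or list, after their values were seen. Cells were thinned to 1000 UMIs for shares, which left 4 cells out. Clusters used scanpy 1.11.5 and leidenalg 0.10.2 (2000 variable genes, counts scaled to 10000, 30 components, 15 neighbours, resolution 1). Doublets were kept, and an alternative removed the 27 cells with the highest Scrublet scores, 16 of them members. Other alternatives changed the pseudocount, the minimum level, the rule and the cells compared. The scripts used python 3.11.15, numpy 2.4.6 and scipy 1.17.1 and were tested on simulated data. Some genes are not reported here.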

Additional observations from a re-analysis of the deposited data

How the results depend on the processing

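No paired analysis was possible because each group is 1 library. For the same reason no replicate could be left out. For members against the rest, 259 genes were higher and 214 lower with 1 CPM added in place of 10, 99 were higher when the rest was limited to cells with an Id2 UMI, and 78 were lower among cells with at most 2 G2/M UMIs. For the ILC transcription factors the median was 0.92 (log2) with a minimum of 5 CPM, 0.86 against cells with an Id2 UMI and 1.07 at most 2 G2/M UMIs. The share of members was 20.6% with at least 3 Rora UMIs, 18.8% with the rule on thinned cells and 33.1% among cells with at most 2 G2/M UMIs. In the split by Zbtb16, 585 genes were higher and 697 lower with 1 CPM added, 758 and 692 with a minimum of 5 CPM, and 18 and 49 with a minimum of 100 CPM, which was added after the data were seen. With at least 3 Rora UMIs 529 were higher. The cluster with the most members held 75.3% of them at resolution 0.5 and 43.2% at 1.5.

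Directions turned for Prss34 (0.21 against cells with an Id2 UMI, and 0.052 without cells of other lineages, added after the data were seen), for Tpx2 (0.22 at most 2 G2/M UMIs) and, in the split, for H2-Eb1 (0.017 with at least 3 Rora UMIs), Eomes (0.031) and Nusap1 (0.14, both at most 2 G2/M UMIs). The cause was not tested. Of 63 named genes past 2-fold against the rest, 61 kept their sign in 12 alternatives and 35 stayed past 2-fold in each. In the split the numbers were 52, 49 and 27 past 1.5-fold, over 10 alternatives. A limit of 5% mitochondrial UMIs left the 511 members as they were. Depth limits the Zbtb16-negative members most, where 3 UMIs equal 8.19 CPM.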
